A study of Mus musculus with 6 samples.

Results

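The 39 genes described here help to make the myelin sheath of the central nervous system or mark the oligodendrocytes that build it. They were taken by name from a list, not by a threshold on their values, and all 39 were found among the 35275 genes of the deposited tables. All 39 passed the filter on low counts, together with 16098 other genes, so that 16137 genes were tested. They were measured by bulk RNA-seq of poly(A) RNA from whole spinal cord of 3 Sox2 cKO mice and 3 Ctrl mice on a C57BL/6 background. Sox2 cKO mice carried mGfap-Cre and Sox2 fl/fl, so that Sox2, a transcription factor gene, was deleted where the mouse Gfap promoter had driven Cre, which is mainly in astrocytes. The sources differ on the Ctrl genotype. The sample labels give mGfap-Cre:Sox2+/+, the series text gives mGfap-Cre or Sox2fl/fl, and the methods of the study give Sox2 fl/fl littermates. Age is postnatal day 90 in the sample labels and day 80 in the series text and the methods. Each group held 2 females and 1 male according to the methods, and libraries were not told apart by sex.

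Oligodendrocytes wrap axons in many layers of compacted membrane. Compact myelin is held together by basic and membrane-spanning proteins, its lipids include galactosylceramide and sulfatide, and adhesion molecules at the paranodes and along the internode fix the sheath to the axon. Most myelin protein genes are switched on late in the lineage, after precursors have left the cell cycle, under transcription factors such as Myrf, while some genes of the list are also made by neurons, astrocytes or other cells. Schwann cells of the nerve roots share a number of them. In whole tissue, fewer cells of a type and less RNA per cell cannot be told apart.

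Libraries are called by the number that ends their column name. Ctrl libraries 2, 4 and 6 and Sox2 cKO libraries 1, 3 and 5 held 21507911 to 28392184 counts each, with shallower and deeper libraries in both groups. Values per library are given as CPM, a gene's counts relative to library size after scaling by edgeR's TMM factors, and levels are compared between genes only as FPKM, which is per length. Sox2 itself stood at 19.9, 14.8 and 29.5 CPM in Ctrl libraries 2, 4 and 6 and at 3.16, 2.69 and 2.98 CPM in Sox2 cKO libraries 1, 3 and 5. Its log2 fold change, which throughout is Sox2 cKO against Ctrl, was −2.86 ± 0.24 (SE, n = 3 per group, edgeR adjusted p = 0.00096). The spinal cord origin was visible in Hoxb8, at 228 to 256 CPM over the 6 libraries. The estimated biological coefficient of variation was 0.119, and an exact two-sided permutation test of 3 libraries against 3 cannot go below p = 0.1.

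Among all genes tested, 24.6% passed an adjusted p of 0.05 in edgeR, 12.4% with lower and 12.2% with higher values in Sox2 cKO. Of the 39 myelin genes 10 passed (25.6%), with 7 lower (17.9%) and 3 higher (7.69%), so that the share called was close to that of all genes. The 7 that fell were Nfasc, Tmem88b, Tspan2, Myrf, Lpar1, Cntn2 and Gpr37, and the 3 that rose were Ppp1r14a, Cryab and Apod. The median log2 fold change of the 39 genes was −0.08, with 24 negative and 15 positive values, beside a median of 0.02 over all genes tested. The values ran from −0.65 for Nfasc to 0.48 for Ppp1r14a. Of the 29 genes that did not pass, 25 had a 95% confidence interval that stayed within 0.5 of 0 on the log2 scale. The exceptions were Car2, Nkx6-2, Zfp488 and Evi2a.

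How many genes passed depended on which libraries were in the fit. Without Ctrl library 4 edgeR called 0 of the 39 genes and 26 genes in all, and without Sox2 cKO library 1 it called 0 of the 39 and 8 in all. At an unadjusted p below 0.05 these fits still held 15 and 13 of the 39 genes, and DESeq2 without the same libraries called 9 lower and 1 higher (1996 of 24115 genes in all), and 8 lower and 1 higher (2342 of 24136). Without Ctrl library 2 the count in edgeR was 8 lower and 11 higher, with 6119 of 16590 genes called in all.

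Fold changes ran with gene length in these libraries. Over all 16137 genes Spearman's rho between length and log2 fold change was −0.48, and over the 39 myelin genes it was −0.57, given as a description over genes that share the same 6 libraries. The 13 shortest myelin genes, of 531 to 2117 bases, held all 3 that rose and none that fell, and 26.9% of all tested genes in that range of length rose. The 13 longest, of 3543 to 9739 bases, held 6 of the 7 that fell, and 23.2% of all tested genes of that length fell. In the middle 13, of 2228 to 3471 bases, Tmem88b alone fell, beside 5.9% of all genes of that length.

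A second fit removed the trend of each library with gene length. It left rho at 0.01 over all genes and at −0.10 over the 39, and it called 13.1% of all genes, 6.99% lower and 6.08% higher. Here 9 of the 39 myelin genes fell (23.1%) and 0 rose, with a median log2 fold change of −0.11 beside 0.00 over all genes (DESeq2, with no correction for length, called 3 higher, and 18 of the 39 had an unadjusted p below 0.05 in the corrected fit). The 9 were Tmem88b, Cldn11, Lpar1, Tspan2, Gpr37, Qdpr, Mal, Cnp and Nfasc. Of these, Tmem88b, Tspan2, Lpar1, Gpr37 and Nfasc had also fallen without the correction, and Cldn11, Qdpr, Mal and Cnp had not passed. Cntn2, Myrf and the 3 genes that rose no longer passed.

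**Figure D1:**
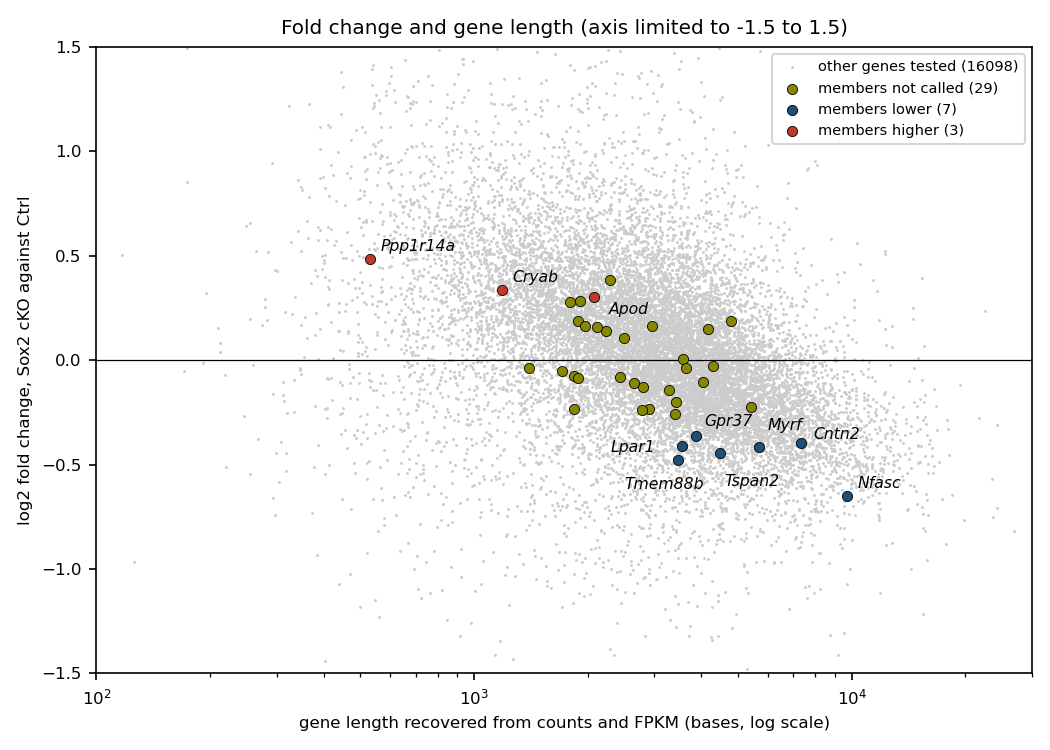
Log2 fold change of Sox2 cKO against Ctrl from edgeR (y axis) against gene length in bases (x axis, log scale), with each tested gene as a grey point and the 39 myelin and oligodendrocyte genes marked by their call. The 3 genes that rose lie at 531 to 2074 bases and the 7 that fell at 3471 to 9739 bases. 98 genes lie outside the y range and 7 outside the x range.

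The study lists the SOX2-bound sites of highest enrichment in chromatin of adult cerebral cortex, not spinal cord. That list names 3 of the 39 genes as the nearest gene of a site, Plekhb1, Nkx6-2 and Jam3, and none of the 3 passed the test in either fit. The sites are printed because they are the only sites on that list beside these genes. The study's longer list, which also holds sites of lower enrichment, was not searched. The share of all genes named on the list of highest enrichment was not worked out, so the count of 3 is not a result about the myelin genes. Of all 39 genes, 74.4% did not pass in edgeR. Capitals mark the listed binding sequence of 11 bases, with 10 bases on each side, on the strand as listed and in build mm10.
Plekhb1 site, in chr7:100654006-100654106: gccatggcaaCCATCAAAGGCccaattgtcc
Nkx6-2 site, in chr7:139530823-139530923: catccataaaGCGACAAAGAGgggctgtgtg
Jam3 site, in chr9:27203199-27203299: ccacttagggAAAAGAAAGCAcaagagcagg
The first lies within the Plekhb1 gene, 8358 bases past its start, where GENCODE M21 lists no exon. The second lies past the end of Nkx6-2, 51924 bases from its start, in an intron of the neighbouring gene Inpp5a. The third lies outside Jam3, at −47828 bases relative to its start, over an exon of the noncoding gene Gm48801. The first and the second hold CAAAG, the core of the SOX2 motif, and the third does not.

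The 250 bases before the transcription start, from RefSeq on GRCm38.p6, were available for 28 of the 39 genes in 39 windows. The bases after the start matched a GENCODE transcript of the same gene for 28 of these 39 windows. Windows of the same gene can overlap, as for Gal3st1 and Mag, so a core can be counted more than once. The core CAAAG on either strand was in 46.2% of these windows and in 48.6% of all 32851 windows of the genome. CAATG, a related SOX core, was in 38.5% and 32.6%, and either core in 74.4% and 65.0%. A pair of windows is printed, one of a gene that fell in both fits and one of a gene that rose in the first fit, both free of annotated exons. They are written 5′ to 3′ along the gene, which for both is the minus strand, with either core in capitals (CATTG is CAATG on the other strand).
Tmem88b, chr4:155785875-155786124: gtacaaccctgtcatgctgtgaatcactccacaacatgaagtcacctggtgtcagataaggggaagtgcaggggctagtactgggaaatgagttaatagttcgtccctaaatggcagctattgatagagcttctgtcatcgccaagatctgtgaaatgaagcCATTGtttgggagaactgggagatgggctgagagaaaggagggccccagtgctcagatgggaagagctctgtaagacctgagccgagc
Apod, chr16:31314809-31315058: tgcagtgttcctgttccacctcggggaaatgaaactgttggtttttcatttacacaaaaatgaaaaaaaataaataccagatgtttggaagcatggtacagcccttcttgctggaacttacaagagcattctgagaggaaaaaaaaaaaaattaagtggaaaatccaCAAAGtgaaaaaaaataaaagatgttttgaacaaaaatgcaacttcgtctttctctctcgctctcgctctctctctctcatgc
Each window held 1 core, at 88 bases before the start for Tmem88b and 83 for Apod. A match is a string of letters at this place and not a bound site.

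Structural proteins of the sheath dominated the set. Mbp, the basic protein that zips the cytoplasmic faces of the membrane together, stood at 2645 ± 312 FPKM in Ctrl and 3218 ± 146 FPKM in Sox2 cKO (mean ± SD, n = 3 each). Mobp, another small basic protein of compact myelin, followed at 1732 ± 108 and 1683 ± 206 FPKM. Plekhb1 came next at 543 ± 13.0 and 533 ± 23.9 FPKM. Zfp488, a zinc finger regulator, was the lowest at 2.27 ± 0.98 and 2.38 ± 0.37 FPKM.

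**Figure D2:**
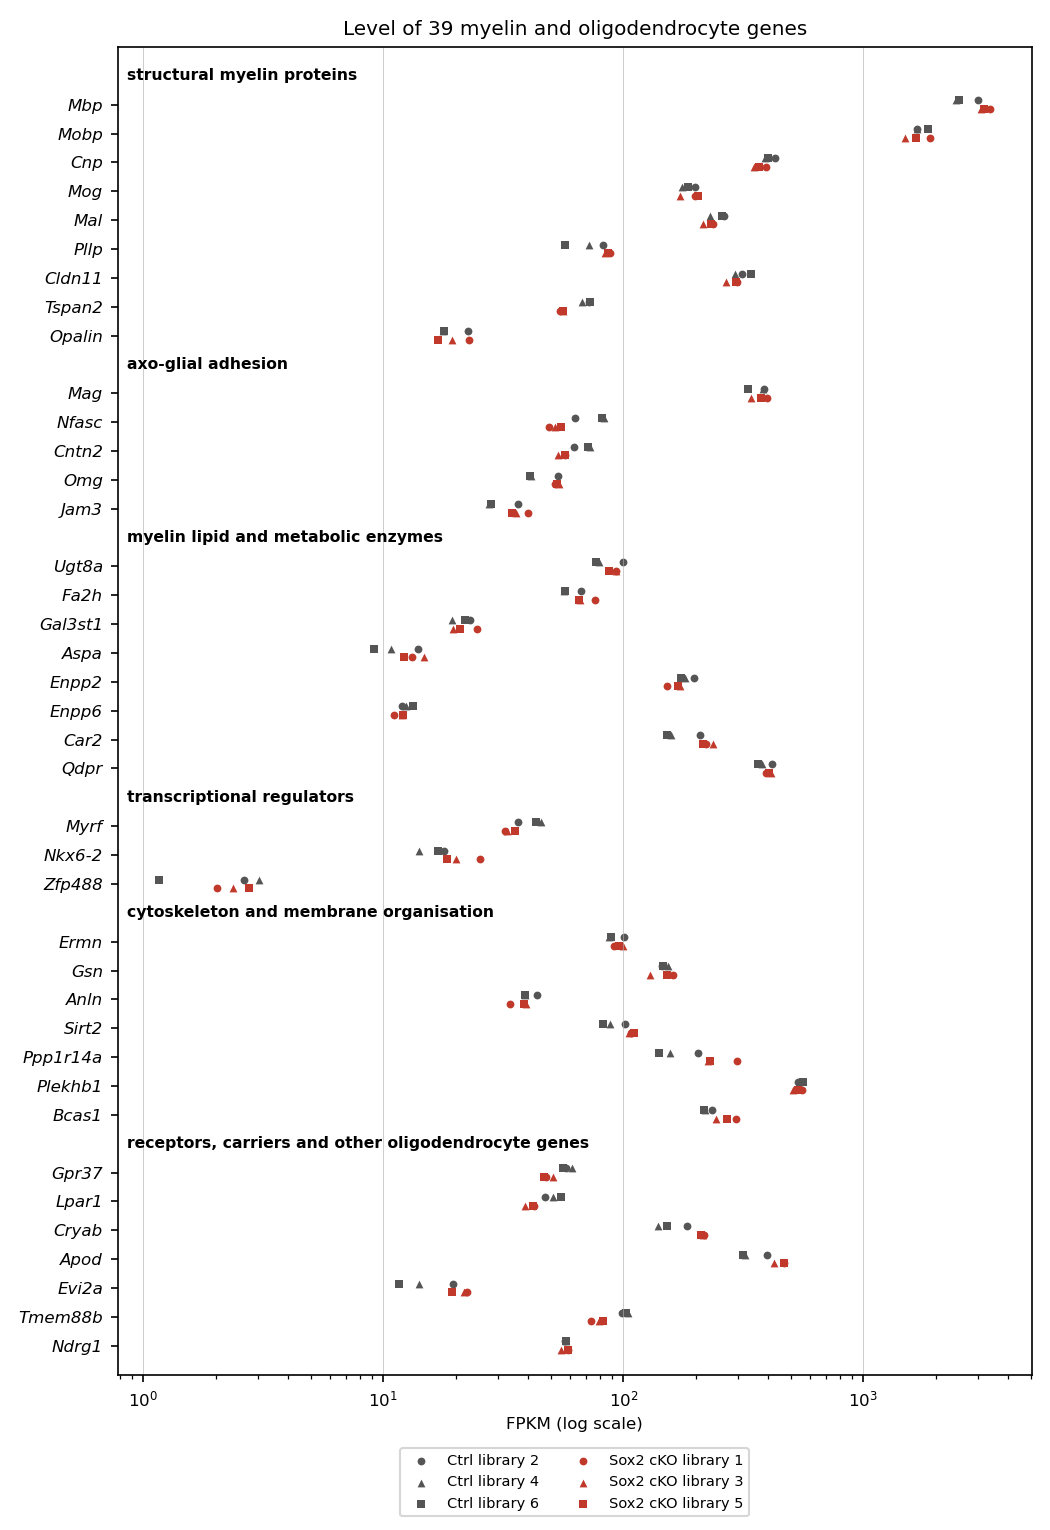
Level of each of the 39 genes as FPKM (x axis, log scale) in the 3 Ctrl libraries (grey) and the 3 Sox2 cKO libraries (red), with genes grouped by role and 1 symbol per library. Group means run from 2.27 FPKM for Zfp488 in Ctrl to 3218 FPKM for Mbp in Sox2 cKO, and the spread between genes is far wider than that between groups.

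Of the 9 structural genes, 1 fell and 0 rose. Tspan2, a tetraspanin of oligodendrocyte membranes (ENSMUSG00000027858, chr3:102734529-102801513), was at 325, 313 and 346 CPM in Ctrl libraries 2, 4 and 6 and at 230, 243 and 249 CPM in Sox2 cKO libraries 1, 3 and 5. All values of Sox2 cKO lay under the lowest Ctrl value. This gave a log2 fold change of −0.44 ± 0.08 (edgeR adjusted p = 0.013), and −0.35 ± 0.07 with length correction (adjusted p = 0.019).

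Mbp was at 14507, 12171 and 12680 CPM in Ctrl libraries 2, 4 and 6 and at 15330, 14420 and 15018 CPM in Sox2 cKO libraries 1, 3 and 5. Ctrl library 2 reached into the Sox2 cKO range, and the other Ctrl libraries were below it. The log2 fold change was 0.19 ± 0.10 and did not pass (edgeR adjusted p = 0.18, 95% confidence interval −0.03 to 0.40), nor did the length-corrected value of 0.31 (adjusted p = 0.062). Mobp was at 5516, 5718 and 6474 CPM in Ctrl and 5893, 4739 and 5392 CPM in Sox2 cKO, with overlap and a log2 fold change of −0.14 ± 0.11 (edgeR adjusted p = 0.34).

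Cnp, the phosphodiesterase of non-compact myelin, Mal, a raft proteolipid, and Cldn11, the claudin of the tight junctions between myelin layers, were each lower in all 3 Sox2 cKO libraries than in all 3 Ctrl libraries. Their log2 fold changes were −0.23 ± 0.08, −0.24 ± 0.09 and −0.24 ± 0.10. They missed the threshold in edgeR at adjusted p values of 0.063, 0.071 and 0.094 and passed with length correction, at −0.28, −0.30 and −0.43 (adjusted p = 0.029, 0.033 and 0.025). For Cnp the CPM were 1255, 1171 and 1232 in Ctrl and 1081, 983 and 1050 in Sox2 cKO. Mog, an immunoglobulin-like protein of the outermost layer, Opalin and Pllp overlapped between groups, with log2 fold changes of −0.05, −0.08 and 0.19, and passed in neither fit.

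The 39 genes together took 33799, 31409 and 32935 CPM in Ctrl libraries 2, 4 and 6 and 33895, 31388 and 33461 CPM in Sox2 cKO libraries 1, 3 and 5. These sums overlapped. Mbp made up 42.9%, 38.7% and 38.5% of the sum in Ctrl and 45.2%, 45.9% and 44.9% in Sox2 cKO, without overlap. Leaving out Mbp, the other 38 genes summed to 19596 ± 572 CPM in Ctrl and 17992 ± 889 CPM in Sox2 cKO (SD, n = 3 each), without overlap. The share of Mbp and the sum without Mbp come from the same reads and are not separate results. Of all single genes tested, 22.1% were lower without overlap. The ratio of Mbp to Mobp in FPKM was 1.53 ± 0.24 and 1.92 ± 0.15 and overlapped. The sums and the share of Mbp are of reads and not of levels per length, so longer genes weigh more in them. No test was made of these sums and ratios.

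Among the 5 genes of axo-glial adhesion 2 fell and 0 rose. Nfasc encodes neurofascin, whose glial isoform anchors the paranodal loops and whose neuronal isoform gathers sodium channels at nodes and axon initial segments (ENSMUSG00000026442, chr1:132564690-132741797). The counts are per gene, so the isoforms were not separated. It was at 617, 843 and 846 CPM in Ctrl libraries 2, 4 and 6 and at 453, 488 and 527 CPM in Sox2 cKO libraries 1, 3 and 5. Ctrl library 2 stood below the other Ctrl libraries and still above every Sox2 cKO library. It changed by −0.65 ± 0.13 on the log2 scale (edgeR adjusted p = 0.013). At 9739 bases Nfasc was the longest of the 39, and length correction took it to −0.28 ± 0.07 (adjusted p = 0.037).

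Cntn2, an adhesion protein of the juxtaparanode on both axon and glia (chr1:132509427-132543256), was at 460, 554 and 554 CPM in Ctrl and 397, 381 and 413 CPM in Sox2 cKO. The groups did not overlap, and the log2 fold change was −0.40 ± 0.10 (edgeR adjusted p = 0.019). With length correction it was −0.11 ± 0.07 and did not pass (adjusted p = 0.32). Mag, the sialic acid binding lectin of the innermost membrane and the most abundant of the adhesion genes at 367 ± 31.1 FPKM in Ctrl and 371 ± 27.1 FPKM in Sox2 cKO, was at 947, 969 and 854 CPM in Ctrl and 908, 805 and 904 CPM in Sox2 cKO. These overlapped, with a log2 fold change of −0.08 ± 0.09. Omg and Jam3, at 0.14 and 0.16, did not pass in either fit.

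The 8 lipid and metabolic enzymes held 0 genes that fell and 0 that rose in edgeR, where Car2 and Enpp2 were the 2 with an unadjusted p below 0.05 and had adjusted p values of 0.089 and 0.061. DESeq2 put Enpp2 alone of the 8 past the threshold. The enzymes that make the galactolipids of myelin had small fold changes with intervals on both sides of 0. Ugt8a, which makes galactosylceramide, had a log2 fold change of 0.00 (95% confidence interval −0.21 to 0.22), Fa2h, which hydroxylates its fatty acids, of 0.11 (−0.09 to 0.30), and Gal3st1, which adds the sulfate of sulfatide, of −0.08 (−0.31 to 0.14). Ugt8a was at 359, 295 and 291 CPM in Ctrl and 314, 323 and 310 CPM in Sox2 cKO.

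Enpp2, a secreted enzyme that makes lysophosphatidic acid, was at 671, 637 and 626 CPM in Ctrl and 486, 568 and 566 CPM in Sox2 cKO, without overlap and with a log2 fold change of −0.26 ± 0.09. It did not pass in either fit. Its product acts on the receptor Lpar1, which did fall. A link between the values of these genes was not tested. Qdpr, which regenerates the cofactor tetrahydrobiopterin, was the most abundant enzyme at 387 ± 26.9 FPKM in Ctrl and 403 ± 9.48 FPKM in Sox2 cKO. At 588, 552 and 542 CPM in Ctrl and 519, 558 and 558 CPM in Sox2 cKO it overlapped, with a log2 fold change of −0.04 ± 0.08 (edgeR adjusted p = 0.75). Its length of 1400 bases placed it among short genes, and length correction moved it to −0.30 ± 0.08, past the threshold (adjusted p = 0.033). Car2, Aspa and Enpp6 had log2 fold changes of 0.28, 0.15 and −0.20 and did not pass.

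Of the 3 transcriptional regulators 1 fell and 0 rose. Myrf, the membrane-tethered factor that switches on and maintains the myelin genes (ENSMUSG00000036098, chr19:10208272-10240748), was at 207, 269 and 261 CPM in Ctrl libraries 2, 4 and 6 and at 173, 180 and 199 CPM in Sox2 cKO libraries 1, 3 and 5. The lowest Ctrl value, 207 CPM, was just above the highest Sox2 cKO value, 199 CPM. On the log2 scale the change was −0.42 ± 0.11 (edgeR adjusted p = 0.025). With length correction it was −0.22 ± 0.08 and did not pass (adjusted p = 0.094).

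Nkx6-2, a homeobox factor of the lineage, was at 34.3, 27.8 and 34.0 CPM in Ctrl and 45.6, 37.0 and 34.6 CPM in Sox2 cKO. Its groups did not overlap, by a narrow margin, and the log2 fold change of 0.28 ± 0.12 did not pass (edgeR adjusted p = 0.12). Nkx6-2 overlaps Inpp5a on the opposite strand, and the sources used here do not say whether reads were counted by strand. Inpp5a had more counts in all, 6617 beside 5177 for Nkx6-2. Zfp488, at 5.31 to 13.6 CPM over the 6 libraries, had a log2 fold change of −0.03 with a 95% confidence interval of −0.65 to 0.59, too wide to show a change of the size seen in Myrf.

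**Figure D3:**
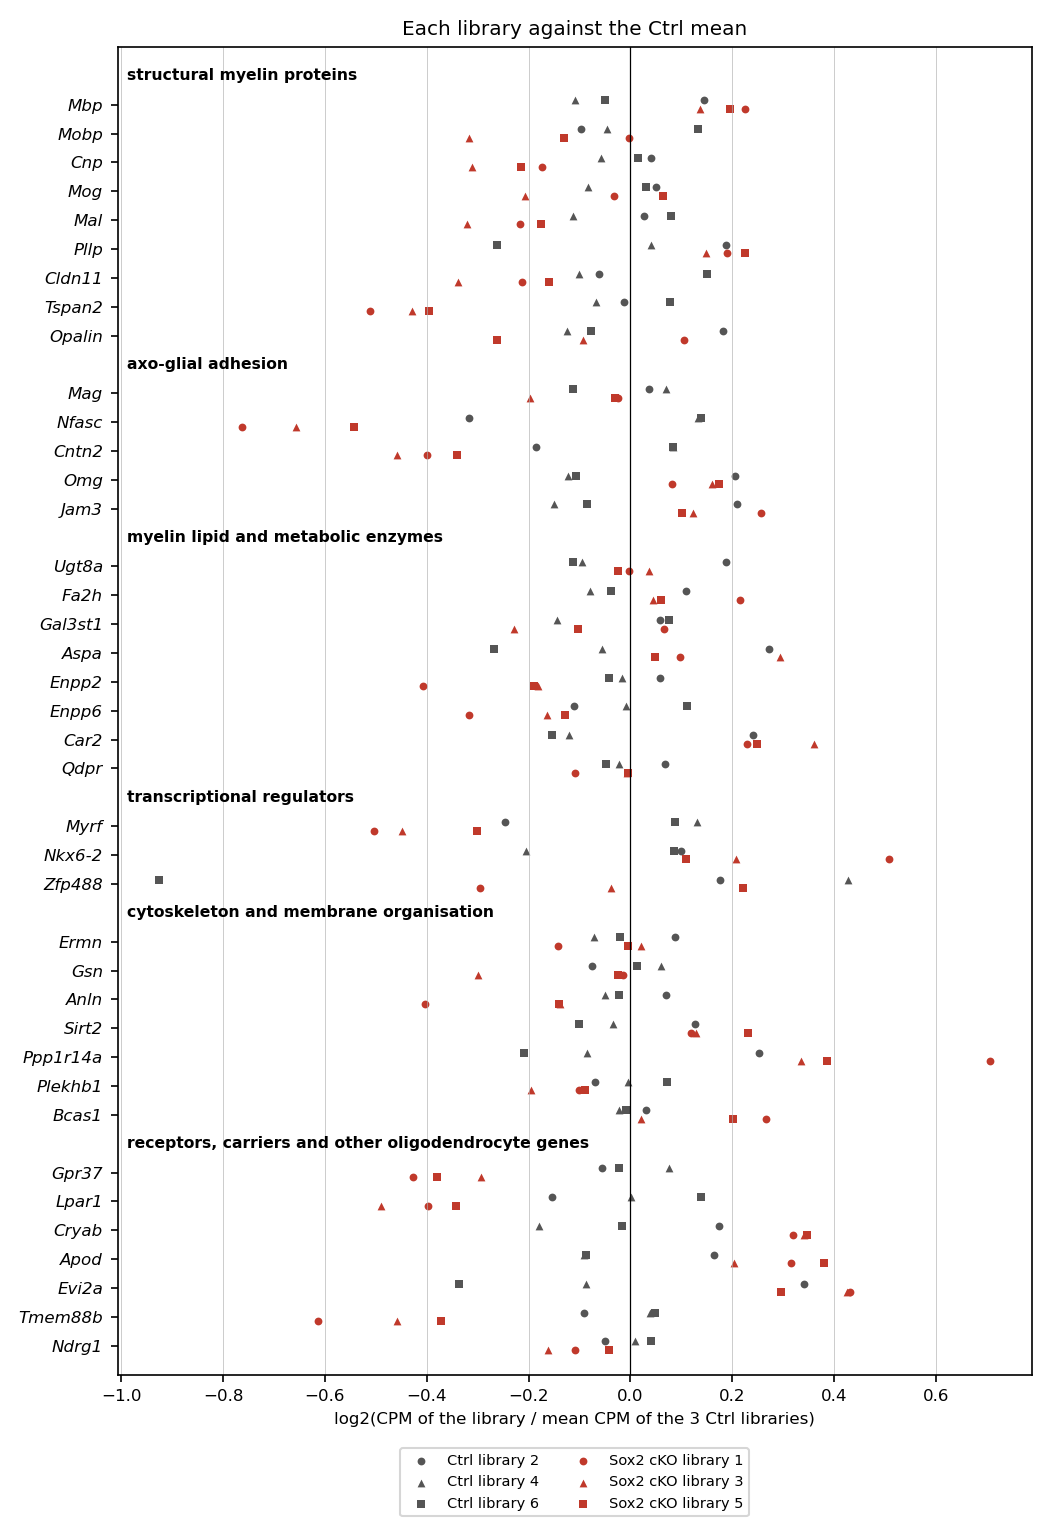
Each library's CPM against the mean of the 3 Ctrl libraries on a log2 scale (x axis), for the 39 genes grouped by role, with Ctrl in grey, Sox2 cKO in red and 1 symbol per library. Of the 39 genes, 14 (35.9%) have all Sox2 cKO points left of all Ctrl points, 4 (10.3%) have all of them to the right, and 21 overlap. Over all genes tested the groups did not overlap in 22.1% (lower) and 22.6% (higher).

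The 7 genes of cytoskeleton and membrane organisation held 1 that rose and 0 that fell. Ppp1r14a, an inhibitor of myosin phosphatase (ENSMUSG00000037166, chr7:29289308-29293801), was at 109, 86.6 and 79.5 CPM in Ctrl libraries 2, 4 and 6 and at 150, 116 and 120 CPM in Sox2 cKO libraries 1, 3 and 5. All Sox2 cKO libraries were higher, with library 1 highest. The log2 fold change was 0.48 ± 0.13 (edgeR adjusted p = 0.028). At 531 bases it was the shortest of the 39, and length correction took it to 0.08 ± 0.10 (adjusted p = 0.60).

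Plekhb1, a membrane-associated protein with a pleckstrin homology domain, was at 1498, 1567 and 1653 CPM in Ctrl and 1467, 1374 and 1477 CPM in Sox2 cKO. The groups did not overlap, and the log2 fold change of −0.13 ± 0.08 did not pass (edgeR adjusted p = 0.28). Anln, a septin-binding scaffold, was also lower without overlap at −0.22 and did not pass. Ermn, Gsn, Sirt2 and Bcas1 overlapped, with log2 fold changes of −0.04, −0.11, 0.16 and 0.17.

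Receptors, carriers and other oligodendrocyte genes held 3 that fell and 2 that rose among 7. Tmem88b, a membrane protein enriched in oligodendrocytes (ENSMUSG00000073680, chr4:155781591-155785874), was at 344, 376 and 379 CPM in Ctrl libraries 2, 4 and 6 and at 239, 267 and 283 CPM in Sox2 cKO libraries 1, 3 and 5. The log2 fold change was −0.48 ± 0.09 (edgeR adjusted p = 0.013), and −0.47 ± 0.08 with length correction (adjusted p = 0.018). Its length of 3471 bases was near the median of all genes, 3060 bases.

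Lpar1, a receptor for lysophosphatidic acid (chr4:58435255-58553898), was at 168, 187 and 206 CPM in Ctrl and 142, 133 and 147 CPM in Sox2 cKO. Its log2 fold change was −0.41 ± 0.09 (edgeR adjusted p = 0.017), and −0.39 ± 0.08 with length correction (adjusted p = 0.023). Gpr37, an orphan receptor of maturing oligodendrocytes (chr6:25665878-25690729), was at 224, 245 and 229 CPM in Ctrl and 173, 190 and 179 CPM in Sox2 cKO. Its log2 fold change was −0.37 ± 0.08 (edgeR adjusted p = 0.015), and −0.32 ± 0.07 with length correction (adjusted p = 0.022). Neither gene overlapped between groups.

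Cryab, a small heat shock protein that is also made by astrocytes (chr9:50751325-50756636), was at 219, 171 and 192 CPM in Ctrl and 242, 246 and 247 CPM in Sox2 cKO. The Sox2 cKO libraries lay within a few CPM of each other and above all Ctrl libraries. Cryab rose by 0.34 ± 0.10 on the log2 scale (edgeR adjusted p = 0.033), and 0.03 with length correction (adjusted p = 0.78). Apod, a lipid-binding lipocalin and the most abundant of these 7 genes at 345 ± 44.7 FPKM in Ctrl and 454 ± 26.2 FPKM in Sox2 cKO (chr16:31296192-31314808), was at 827, 694 and 695 CPM in Ctrl and 919, 851 and 962 CPM in Sox2 cKO. The lowest Sox2 cKO value was just above the highest Ctrl value. Apod rose by 0.30 ± 0.10 on the log2 scale (edgeR adjusted p = 0.047), and 0.15 with length correction (adjusted p = 0.20). Apod is made by fibroblasts as well as oligodendrocytes. Evi2a and Ndrg1 had log2 fold changes of 0.38 and −0.10 and passed in neither fit.

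**Figure D4:**
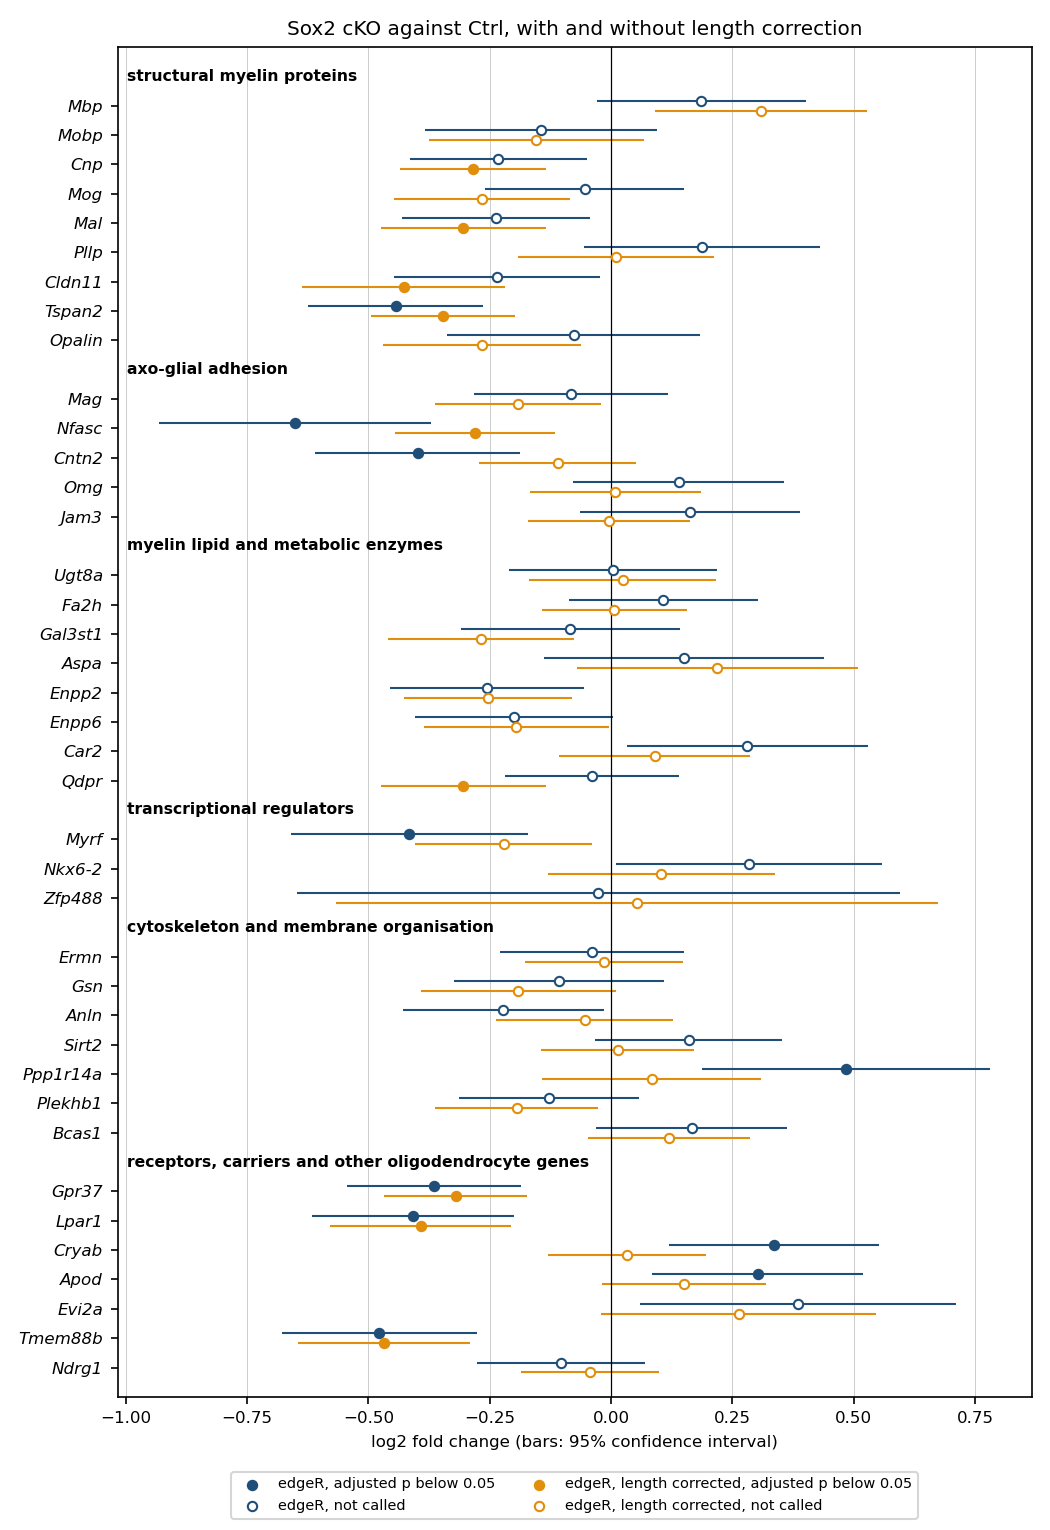
Log2 fold change of Sox2 cKO against Ctrl (x axis, bars give the 95% confidence interval) for the 39 genes by role, from edgeR (blue) and from edgeR with length correction (orange), with filled points for an adjusted p below 0.05. The filled blue points are 7 negative and 3 positive, and the filled orange points are 9 negative and 0 positive.

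By the simple count of groups that did not overlap, 14 of the 39 genes were lower (35.9%) and 4 were higher (10.3%). Over all genes tested the shares were 22.1% lower and 22.6% higher. Cnp, Sirt2, Ermn and Cryab also share bases with a protein-coding gene on the opposite strand, so that without use of strand their reads could not be fully told apart from those of Dnajc7, Nfkbib, Galnt5 and Hspb2, which had 18468, 2518, 200.0 and 228.0 counts in all beside 162914, 30697, 49793 and 32230. The 4 higher were Ppp1r14a, Cryab, Apod and Nkx6-2, all of 531 to 2074 bases.

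Other genes of the oligodendrocyte lineage were read for comparison from lists of known markers. Of 22 further oligodendrocyte genes 1 fell and 2 rose in edgeR, with a median log2 fold change of 0.01. With length correction 4 fell and 1 rose, with a median of −0.09 and 16 negative and 6 positive values. Adamts4, a protease gene of mature oligodendrocytes, fell by 0.54 on the log2 scale (175, 212 and 184 CPM in Ctrl, 118, 136 and 137 CPM in Sox2 cKO, edgeR adjusted p = 0.013). Hapln2, a link protein of the nodal matrix, rose by 0.59 (117, 103 and 85.5 against 159, 155 and 146 CPM, edgeR adjusted p = 0.013), and both passed with length correction too. The lineage factors Sox10 and Olig2 had log2 fold changes of −0.22 and 0.05 and passed in neither fit. Olig1, a further lineage factor, was lower without overlap at −0.19 and passed with length correction at −0.33 (adjusted p = 0.034), and the connexin gene Gjb1 and the receptor gene Gpr62 were the others that fell in that fit alone (−0.36 and −0.35).

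Of 7 genes of precursors and newly formed oligodendrocytes 5 fell and 0 rose in edgeR, with a median log2 fold change of −0.43. With length correction 2 fell and 0 rose, with a median of −0.13 beside −0.11 for the 39 myelin genes. Tnr, a matrix protein, was at 45.2, 63.0 and 64.5 CPM in Ctrl and 15.5, 29.8 and 32.2 CPM in Sox2 cKO, with a log2 fold change of −1.15 ± 0.23 (edgeR adjusted p = 0.014). Gpr17, a receptor of cells about to myelinate, was at 56.6, 57.7 and 68.8 CPM in Ctrl and 23.9, 29.5 and 46.8 CPM in Sox2 cKO, with a log2 fold change of −0.87 ± 0.20 (edgeR adjusted p = 0.018). These were the 2 that also fell with length correction. Whether the precursor genes differed from the 39 myelin genes was not tested.

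Of 8 genes of sterol synthesis, the pathway that supplies the cholesterol of myelin and is active in astrocytes too, 2 fell and 0 rose in both fits. All 8 had negative log2 fold changes in edgeR, with a median of −0.13 and a lowest value of −0.59. Hmgcs1, an early enzyme of the pathway, was at −0.50. In 5 of the 8 the groups did not overlap, with Sox2 cKO lower, as in 22.1% of all genes tested. With length correction 6 were negative and 2 positive. Of 7 astrocyte genes 5 fell and 0 rose in edgeR (3 and 0 with length correction), Gfap by 1.11 on the log2 scale.

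Markers of other cells in the tissue were read beside these values. The 8 Schwann cell genes, which bear on roots left on the cord, held 0 called genes in either fit (Drp2 and Pmp22, which other cells also express, included). Their summed level was 171.5 to 254.9 CPM in Ctrl and 218.2 to 246.7 CPM in Sox2 cKO, lowest in Ctrl library 6. That library was low in meningeal fibroblast genes as well, which summed to 116.2 CPM there and to 200.9 to 267.1 CPM in the other libraries. None of the 5 meningeal genes was called in either fit. The part of these markers in the results for Apod and the other myelin genes was not tested, and without Ctrl library 6 edgeR called 4 of the 39 genes lower and 0 higher, with calls fewer over all genes too (1082 of 16552). Of 7 neuronal genes 0 were called in edgeR and 1, Snap25, rose with length correction, and of 5 microglial genes 0 were called in edgeR and 1 fell with length correction. The 5 Hox genes, which bear on the level of the cord, held 0 called genes in either fit. In edgeR 4 of them had positive log2 fold changes. In 2 of the 5 all Sox2 cKO libraries were above all Ctrl libraries, as in 22.6% of all genes tested. Whether the groups were matched in the level of the cord was not tested.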

How the data were processed

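Poly(A) RNA of whole spinal cord (Sox2 cKO, n = 3, and Ctrl, n = 3) was sequenced single-end with the NEBNext Ultra Directional kit. The authors aligned reads to mm10 with STAR 2.5 and counted them per gene with HTSeq 0.6.1, and the deposited counts are not normalized. The deposited FPKM values were made by the authors from the same counts, gene length and library total, without TMM scaling. Gene lengths recovered from counts and FPKM were whole numbers (within 0.01 base) for all 24442 genes with a count. RNA integrity numbers were above 6.8 per the labels, and the methods of the study state a higher minimum.

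Columns carry a number and no sample name. Those ending in 2, 4 and 6 were taken as Ctrl and in 1, 3 and 5 as Sox2 cKO, after the numbering of mice in the study. The group means in the study's own gene table matched this grouping for 1999 of 1999 genes and the exchanged one for 0 (relative tolerance 0.0001). Per-sample columns left unused numbered 0. The 15 pairs of libraries all differed beyond counting noise (chi-square per degree of freedom of 7.17 to 90.1).

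The main test used edgeR 4.0.16 in R 4.3.3 (filterByExpr, TMM, quasi-likelihood test, no covariates, Benjamini-Hochberg adjustment over all genes at 0.05). Length correction took a lowess curve (span 0.3) of each library's log2 CPM (prior count 2) against log2 length as an offset. DESeq2 1.42.0, other scalings and filters, limma 3.58.1 on log2 FPKM and leaving out each library were alternatives. On simulated data with 200 genes changed by a log2 of 1, edgeR recovered 92% of them among 15973 genes. A length trend was then simulated, linear in log2 length and the same in every Sox2 cKO library. With it 94.0% of the genes edgeR called lay outside the 200 changed genes, and 5.38% after correction. Genes shifted by the simulated trend alone were counted as false, so the high share followed from the setup. The slope of the trend was a set value and was not fitted to these data. The correction is built to remove a trend of that kind, and no true change tied to length was simulated. The simulation therefore cannot say which length-corrected calls in these data are right, nor what share of the uncorrected edgeR calls is false. Positions came from GENCODE M21 (GRCm38, the build of mm10), in which 34490 of 35275 identifiers matched. Promoters and their starts came from RefSeq.

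Every one of the 39 genes is accounted for by role. Values in each library are given for those that passed the test and for the most abundant of each role, and others named with such values were chosen after their values were seen. The 39 genes, the roles and the marker lists were chosen with earlier results of these data known, so counts and medians of a list are descriptions. One of 8 precursor genes, Lhfpl3, was not matched. Beyond the group and its genotype, the labels give an age and an RNA integrity minimum that are the same for all libraries. Columns are not tied to single labels, and p-values measure the spread between these libraries. Single values of some marker genes are not reported here.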

Additional observations from a re-analysis of the deposited data

How the results depend on the processing

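The count of myelin genes that fell was 7 in edgeR, stayed between 6 and 9 under the other scalings, filters on counts, length correction and filtered FPKM, was 11 in DESeq2 (Cnp, Mal, Cldn11 and Enpp2 added), and was 0 with limma on log2(FPKM + 1) without a filter, where 7 genes were called in all. The count that rose was 3, stayed between 2 and 4, and was 0 with length correction and with unfiltered FPKM. Leaving out 1 library in turn, edgeR gave 0 to 8 lower and 0 to 11 higher, and DESeq2, tried after the data were seen, gave 8 to 12 lower and 1 to 11 higher. The lowest edgeR counts came without Ctrl library 4 and without Sox2 cKO library 1, and the highest without Ctrl library 2. The median log2 fold change was −0.08 and ran from −0.11 to −0.03 over the edgeR fits that left out a library. On the FPKM scale, which lacks TMM scaling and lifts the median of all genes to 0.09 (pseudocount 1) or 0.11 (pseudocount 0.1), the median of the 39 was 0.0204 (pseudocount 1, filtered or not) and 0.0212 (pseudocount 0.1). Upper quartile scaling put the medians at −0.03 for the 39 and 0.06 for all genes.

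The 10 called genes kept their direction in the 15 alternatives with a value per gene, which leave out the DESeq2 fits without 1 library. The log2 fold change of genes near 0 changed sign. Ugt8a was −0.00865 with DESeq2 and −0.00646 with its size factors in edgeR. With upper quartile scaling Qdpr was 0.00471, Zfp488 0.0173 and Ermn 0.00393. With length correction Jam3 was −0.0046 and Zfp488 0.0537. With limma on log2(FPKM + 1), filtered or not, Mog was 0.0418, Opalin 0.0204, Mag 0.0168, Gal3st1 0.0133, Qdpr 0.0596, Zfp488 0.0902 and Ermn 0.0585, and with a pseudocount of 0.1 these were 0.0419, 0.0212, 0.0168, 0.0138, 0.0598, 0.156 and 0.0591. Leaving out 1 library in turn, edgeR gave −0.174 to 0.0225 for Opalin, −0.327 to 0.247 for Zfp488, −0.0747 to 0.00991 for Ermn, −0.0483 to 0.107 for Ugt8a and −0.117 to 0.0166 for Mog. The cause of these changes was not tested. No paired analysis was possible because the columns carry no replicate numbers.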
